A study of Mus musculus with 192 samples.

Results

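Bone marrow-derived dendritic cells that received PAM and Zymosan together were compared with cells that received PAM alone and with cells that received Zymosan alone. The comparison used 9 libraries, 3 each of PAM+Zymosan, PAM and Zymosan, which were chosen by their labels only from the 64 groups of 3 libraries in the series, and 3 Ctrl libraries gave the level without these ligands. All 4 groups were cells grown with the growth factor GM-CSF from the marrow of female C57BL/6J mice aged 6 to 8 weeks, plated the day before and harvested 6 hours after stimulation. No transgene, deletion or other agent is named for any of them, the labels used here state no dose, and Zymosan is described there as depleted. Nothing in the labels says that the 3 libraries of a group came from separate mice or cultures, so the p-values measure the spread between these libraries, which may be technical. Each library gives counts of unique molecular identifiers (UMIs, tags that mark single cDNA molecules) for 23481 genes, given here as CPM (counts scaled to a common library total, with TMM factors), and 4720 genes were tested.

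In this field PAM names synthetic lipopeptides that bind Toll-like receptor 2 (TLR2) together with TLR1 or TLR6 and signal through the adaptor MyD88 to NF-kB and MAP kinases. Zymosan is a preparation of yeast cell wall, and in its depleted form it is treated to lose its TLR-stimulating activity and keep the beta-glucan that binds Dectin-1, the product of Clec7a, which signals through the kinase Syk and the adaptor CARD9. Both routes reach NF-kB, and dendritic cells meet structures of these kinds on microbes. The labels name the ligands and not the receptors.

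Total counts were 144331, 191207 and 171573 in the PAM libraries, 98931, 145967 and 198625 with Zymosan, 92149, 133477 and 195442 with the pair and 61823 to 89530 in Ctrl. Ctrl and replicate 1 of the pair were thus the shallowest. Libraries of 1 group correlated with r between 0.817 and 0.929 across genes, lowest in Ctrl, and every pair of libraries within a group differed by more than counting noise (chi-square per degree of freedom 1.10 to 1.47). Marker sums in this paragraph are scaled to the library total alone, without TMM factors. Those factors were 1.26 to 1.27 in Ctrl, 1.10 to 1.12 with PAM, 1.14 to 1.17 with Zymosan and 1.08 to 1.09 with the pair. A larger factor lowers the CPM, so with TMM factors the sums would fall most in Ctrl, and differences between groups would change. The 7 dendritic cell markers summed to 5518 to 6218 CPM in every group, with Zbtb46 at 0 in Ctrl and PAM. The macrophage and monocyte list summed to 12562 to 14364 CPM in Ctrl, 11757 to 12758 with PAM, 10132 to 10654 with Zymosan and 9635 to 10735 with the pair. That list includes Cd14, itself at 362 ± 36 CPM in Ctrl, 2270.3 ± 209 with PAM, 712 ± 71.4 with Zymosan and 1858 ± 102 with the pair (mean ± SD, n = 3, with TMM factors), so the sums do not show the other members alone. Neutrophil markers summed to 568 to 1019 CPM, T and NK cell and erythroid markers were at 0, and B cell, mast cell and fibroblast markers reached at most 44.7 CPM. In bulk RNA, fewer cells of a type and less RNA per cell cannot be told apart, and the part of the macrophage markers in the results was not tested.

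Against PAM alone the pair changed few genes, and it changed about as many against Zymosan alone. Over PAM, 166 genes were called (3.52% of those tested), 126 higher (2.67%) and 40 lower (0.847%). A call here means that edgeR's quasi-likelihood p, adjusted after Benjamini and Hochberg, was under 0.05 and that the level changed at least 2-fold, a log2 fold change of 1 or more in size. Over Zymosan, 183 were called (3.88%), 131 higher (2.78%) and 52 lower (1.1%). PAM and Zymosan themselves differed at 461 genes (9.77%), 223 higher with PAM (4.72%) and 238 higher with Zymosan (5.04%). Both contrasts of the pair share the pair libraries, so their calls are not independent of each other. Against Ctrl, the number of genes called was 656 with PAM (13.9%), 295 with Zymosan (6.25%) and 632 with the pair (13.4%). With the pair 383 genes were higher (8.11%) and 249 lower (5.28%) than in Ctrl, a split that turned to 283 and 382 with library size alone, while both contrasts with the single ligands called more genes higher than lower under each scaling.

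Going past both single ligands was rare. A gene counted as above both when it exceeded each ligand 2-fold or more and the weaker of its tests against PAM and Zymosan, adjusted over all genes, gave a p under 0.05. It held for 10 genes (0.212% of 4720): Ptgs2, Ccl4, Cish, Edn1, Car4, Pdpn, Ier3, Mt2, Dab2 and Stat3. The list holds a prostaglandin enzyme, a chemokine, a vasoactive peptide, a feedback inhibitor of cytokine receptors and a transcription factor, and no interferon gene of the list used here. In all 10 genes the 3 pair libraries lay above the 6 single-ligand libraries, which held for 2.48% of all tested genes. The rule chose the 10 genes on these same libraries, so this only describes them. Without the fold threshold 22 genes were above both (0.466%). For scale, the same rule gave 0 to 69 genes in the 21 pairs of the series, with PAM+Zymosan in place 12.

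Ptgs2 encodes cyclooxygenase-2, the inducible enzyme of prostaglandin synthesis. It was at 13.9, 24.9 and 19.2 CPM in Ctrl, 157, 216 and 194 with PAM, 119.6, 115 and 154 with Zymosan and 579, 670.3 and 559 with the pair. The pair libraries were far above all others, with no overlap, at 3.13 times the level with PAM and 4.51 times that with Zymosan (log2 fold change 1.65, SE 0.23, adjusted p = 9.86e-09 over PAM; log2 fold change 2.17, SE 0.26, adjusted p = 9.59e-13 over Zymosan). Ccl4, a chemokine that draws monocytes and T cells, was at 789.5, 1159.9 and 864 CPM in Ctrl, 1968, 1755 and 2178 with PAM, 1675, 1561 and 1432 with Zymosan and 5200.4, 5591 and 5014 with the pair. PAM and Zymosan alone gave levels that did not pass the test against each other (adjusted p = 0.193), and the pair was 2.68 and 3.40 times as high (log2 fold change 1.42, SE 0.16, adjusted p = 3.04e-13 over PAM, 1.77 over Zymosan). For its close relative Ccl3 all 3 pair libraries were also above every single-ligand library, and the log2 fold change over PAM, 0.36 (95% interval 0.075 to 0.64), did not pass (adjusted p = 0.136). Whether Ccl3 and Ccl4 differ in this was not tested.

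Cish, a feedback inhibitor induced by cytokine receptors that signal through STAT5, was at 0, 12.5 and 9.60 CPM in Ctrl, 19.7, 25.1 and 27.8 with PAM, 55.2, 44.8 and 37.3 with Zymosan and 179, 125 and 215 with the pair. The pair was 7.02 times the PAM level and 3.94 times the Zymosan level. Pdpn encodes podoplanin, a membrane glycoprotein that binds the receptor CLEC-2, and stood at 83.1, 49.9 and 115 CPM in Ctrl, 184, 201 and 267 with PAM, 304, 115 and 149 with Zymosan and 453, 508 and 484 with the pair. Its pair libraries were close to each other and above every other library, with log2 fold changes of 1.15 over PAM and 1.46 over Zymosan. Mt2, a metal-binding metallothionein, was at 139, 99.8 and 106 CPM in Ctrl, 197, 196 and 183 with PAM, 166, 179 and 224 with Zymosan and 632, 376 and 395 with the pair. Replicate 1 of the pair stood highest, and all 3 pair libraries were above the singles. Ier3, an immediate early gene, was at 27.7, 24.9 and 28.8 CPM in Ctrl, 138, 90.5 and 133 with PAM, 119.6, 122 and 121 with Zymosan and 379, 258 and 249.7 with the pair. PAM and Zymosan reached almost the same mean (121 ± 26.1 and 121 ± 1.05 CPM, SD, n = 3), and the pair was 2.39 times as high as PAM.

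Edn1, which encodes the peptide endothelin-1, was at 41.6, 12.5 and 0 CPM in Ctrl, 65.6, 20.1 and 66.7 with PAM, 27.6, 44.8 and 70 with Zymosan and 253, 118 and 175 with the pair, with replicate 1 of the pair highest. The log2 fold changes were 1.82 and 1.74. Car4, a carbonic anhydrase anchored to the cell surface, was at 13.9, 0 and 0 CPM in Ctrl, 19.7, 25.1 and 5.56 with PAM, 9.20, 0 and 0 with Zymosan and 189, 81 and 69.9 with the pair. It had 1 count over the Zymosan libraries, 9 with PAM and 43 with the pair, a ratio of pair to Zymosan of 47.8 (counting interval 8.14 to 1932). Stat3, a transcription factor activated by IL-6 and IL-10 receptors, was at 83.1, 74.8 and 106 CPM in Ctrl, 118, 106 and 72.2 with PAM, 110.4, 122 and 70 with Zymosan and 232, 169 and 219.7 with the pair. Neither single ligand moved it past the test against Ctrl (adjusted p = 0.881 and 0.923), and the pair exceeded Ctrl by 1.20 on the log2 scale (adjusted p = 0.00840). Dab2, an endocytic adaptor protein, was at 125, 125 and 67.2 CPM in Ctrl, 26.2, 30.2 and 22.2 with PAM, 27.6, 57.6 and 37.3 with Zymosan and 179, 95.8 and 105 with the pair. It differs from the other 9 in its control level: each single ligand lowered it (log2 fold change -1.92 with PAM, -1.27 with Zymosan, adjusted p = 0.000820 and 0.0480) and the pair was at 127 ± 45.6 CPM against 106 ± 33.2 in Ctrl (SD, n = 3).

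**Figure D1:**
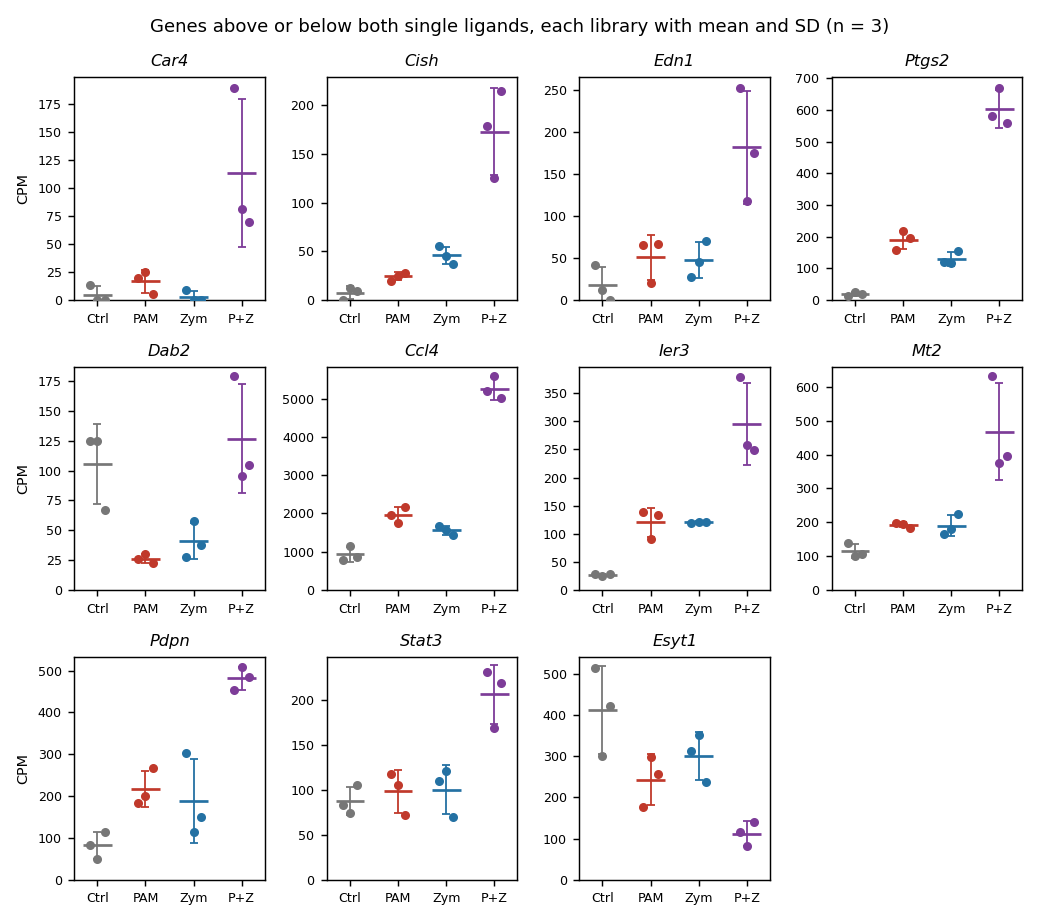
CPM (vertical axes, linear, each from 0) of the 10 genes above both single ligands and of Esyt1, the gene below both, in the 3 libraries of Ctrl, PAM, Zymosan (Zym) and PAM+Zymosan (P+Z), with the mean as a horizontal line and the SD as a bar. In the first 10 panels the 3 pair libraries lie above all 6 single-ligand libraries, as for Ptgs2 at 559 CPM or more against 216 or less.

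These 10 genes were not equally firm. Ccl4 and Ptgs2 were called above both under all 16 alternatives checked, and Cish and Pdpn under 15, all but the thinning of every library to 46564 counts. Runs without 1 replicate number of every group were not checked gene by gene. Without replicate 1 of the pair, the shallowest of its libraries, 4 genes remained: Ccl4, Ptgs2, Cish and Pdpn. Mt2 then missed the fold threshold (log2 fold change 0.99), and the adjusted p was Car4 0.0614, Dab2 0.263, Edn1 0.144, Ier3 0.0735 and Stat3 0.162. Other single libraries also ended calls. Dab2 was lost without PAM+Zymosan replicate 1 or Zymosan replicate 1 or 3 (adjusted p = 0.263, 0.0970 and 0.198) and with no filter on low counts, Ier3 without PAM+Zymosan replicate 1 or PAM replicate 2 (adjusted p = 0.0735 and 0.0632), Edn1 without PAM+Zymosan replicate 1 or 3 or PAM replicate 2 or Zymosan replicate 1 or 2 (adjusted p = 0.144, 0.0784, 0.190, 0.0868 and 0.0776) and Stat3 without PAM+Zymosan replicate 1 or 3 or PAM replicate 2 or 3 or Zymosan replicate 1 or 3 (adjusted p = 0.162, 0.308, 0.0966, 0.378, 0.0767 and 0.688). Stat3 was also lost with library size alone, with no filter and by DESeq2.

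A single gene was below both ligands (0.0212% of those tested). Esyt1, a protein that tethers the endoplasmic reticulum to the plasma membrane, was at 512, 299 and 422 CPM in Ctrl, 177, 297 and 256 with PAM, 313, 352 and 238 with Zymosan and 116, 81 and 139.8 with the pair. Its pair libraries lay below all 6 single-ligand libraries, which held for 2.08% of tested genes, and fell by 1.09 on the log2 scale below PAM (adjusted p = 0.00280) and by 1.35 below Zymosan (adjusted p = 5.84e-05). The call was lost without PAM+Zymosan replicate 2 or PAM replicate 2 or 3 (adjusted p = 0.245, 0.216 and 0.0548), and library size alone or a fit of the 4 groups alone gave 2 genes below both.

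Other libraries of the series allow the same question with an added ligand: cells given PAM, Zymosan and X were compared with PAM+X and with Zymosan+X, where X was LPS, HMW, SeV, cGAMP or CpGB. These libraries share none with the comparison above, although all groups entered 1 fit. With HMW, 8 of the 10 genes were above both pairs, against 29 of 4720 (0.614%) among all tested genes. Car4 and Stat3 were the exceptions: their means too were above both pairs, with an adjusted p of 0.0667 and 0.0741 for the larger p. Stat3 also missed the fold threshold, at log2 fold changes of 0.67 over PAM+HMW and 1.47 over Zymosan+HMW. Ptgs2 was at 407 ± 12.9 CPM with PAM+HMW, 129.7 ± 10.8 with Zymosan+HMW and 825 ± 193 with PAM+Zymosan+HMW (SD, n = 3; log2 fold changes 1.01 and 2.67, adjusted p of the larger 1.88e-05). Ccl4 was at 4574 ± 36.7 CPM with PAM+HMW, 2655 ± 323 with Zymosan+HMW and 11656 ± 3293 with PAM+Zymosan+HMW (log2 fold changes 1.35 and 2.13, adjusted p of the larger 1.03e-12), and Edn1 at 83.9 ± 22.2 CPM with PAM+HMW, 67.8 ± 24.3 with Zymosan+HMW and 424 ± 98.2 with PAM+Zymosan+HMW (log2 fold changes 2.28 and 2.61, adjusted p of the larger 9.50e-11).

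With the other added ligands fewer of the genes went past both pairs. Ier3 was above both with LPS, SeV and cGAMP as well, and it was the only one of the 10 genes to do so with these 3 ligands, where 2 (0.0424%), 6 (0.127%) and 5 (0.106%) of all tested genes were above both. Mt2 with SeV (log2 fold changes 1.60 and 0.99, adjusted p of the larger 0.00362) and Pdpn with cGAMP (0.81 and 1.41, 0.0354) passed both tests and missed the fold threshold. With SeV Ier3 was at 69 ± 34 CPM with PAM+SeV, 67.9 ± 11.4 with Zymosan+SeV and 264 ± 26.5 with PAM+Zymosan+SeV (log2 fold changes 1.88 and 2.00, adjusted p of the larger 6.42e-06). No gene was above both with CpGB (0% of those tested) by edgeR's quasi-likelihood test, against 14 at an unadjusted p under 0.05 and 0 by DESeq2. There 7 of the 10 genes were higher than with PAM+CpGB at an adjusted p under 0.05 (4.11% of all tested genes) and 1, Car4, than with Zymosan+CpGB (0.763%). Edn1 was at 86.3 ± 28.6 CPM with PAM+CpGB, 447 ± 85.3 with Zymosan+CpGB and 403 ± 125 with PAM+Zymosan+CpGB. Ccl4 was lower in the triplet than with Zymosan+CpGB, 8091 against 11800.2 CPM (log2 fold change -0.55, adjusted p = 0.0207). Esyt1 was below both with none of the 5 added ligands. Whether the added ligands differ in this was not tested.

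**Figure D2:**
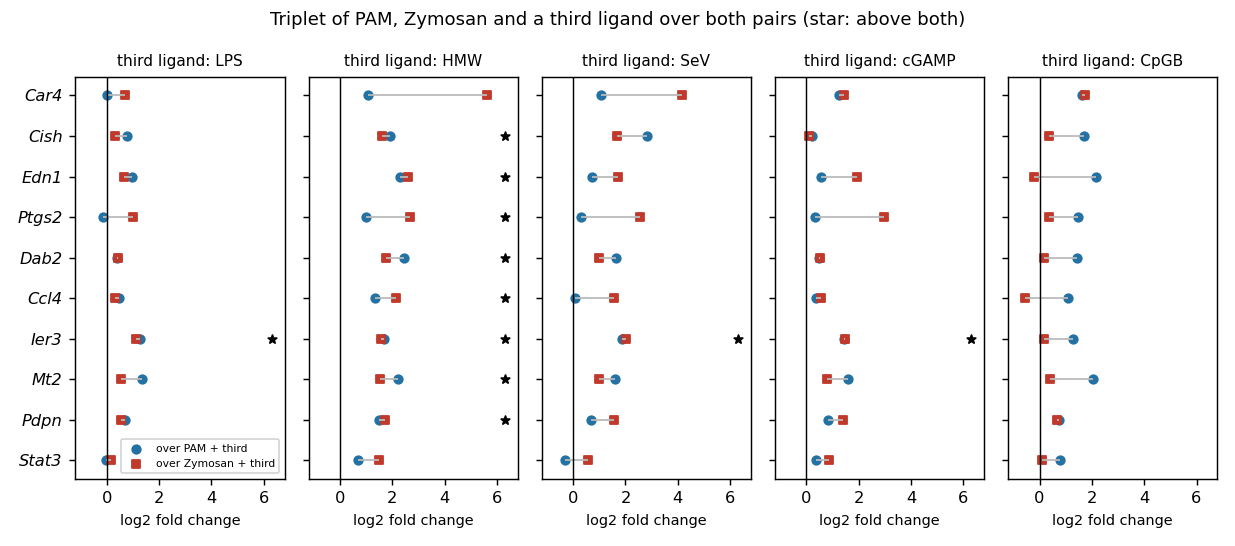
Log2 fold change (horizontal axis) of PAM+Zymosan+X over PAM+X (blue circles) and over Zymosan+X (red squares) for the 10 genes above both single ligands, 1 panel for each added ligand X, with a star where a gene was above both. Stars stand at 8 genes in the HMW panel, at Ier3 in the LPS, SeV and cGAMP panels and at none in the CpGB panel.

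For the 461 genes on which PAM and Zymosan differed, the pair lay, at the median, nearer the ligand that gave the higher level. A position was computed on the log2 scale, 0 at the Zymosan level and 1 at the PAM level. Among the 223 genes higher with PAM the median position was 0.66 (quartiles 0.49 and 0.87), and 166 of them (74.4%) were nearer PAM. Among the 238 genes higher with Zymosan the median was 0.31 (quartiles 0.12 and 0.54), and 167 were nearer Zymosan. Computed from each pair library alone the medians were 0.66, 0.67 and 0.71 for the former and 0.35, 0.24 and 0.39 for the latter, so each library of the pair placed both sets on the same sides. Over all 461 genes the median was 0.52, near the middle. These genes were chosen on the same PAM and Zymosan libraries that set the ends of the scale, so the positions are a description.

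By the tests of the pair against each ligand (adjusted p under 0.05, no fold threshold; 6.46% of tested genes passed over PAM and 6.36% over Zymosan), 81 of the 223 genes higher with PAM differed from Zymosan only and are called PAM side here, with a median position of 0.91. Another 26 differed from PAM only, 21 differed from both and lay between, 5 lay outside the range of both and 90 differed from neither. Of the 238 genes higher with Zymosan, 91 differed from PAM only and are called Zymosan side, with a median position of 0.074, 33 were on the PAM side, 15 between, 1 outside, and 98 differed from neither. A gene that did not pass against a ligand is not shown to equal it.

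**Figure D3:**
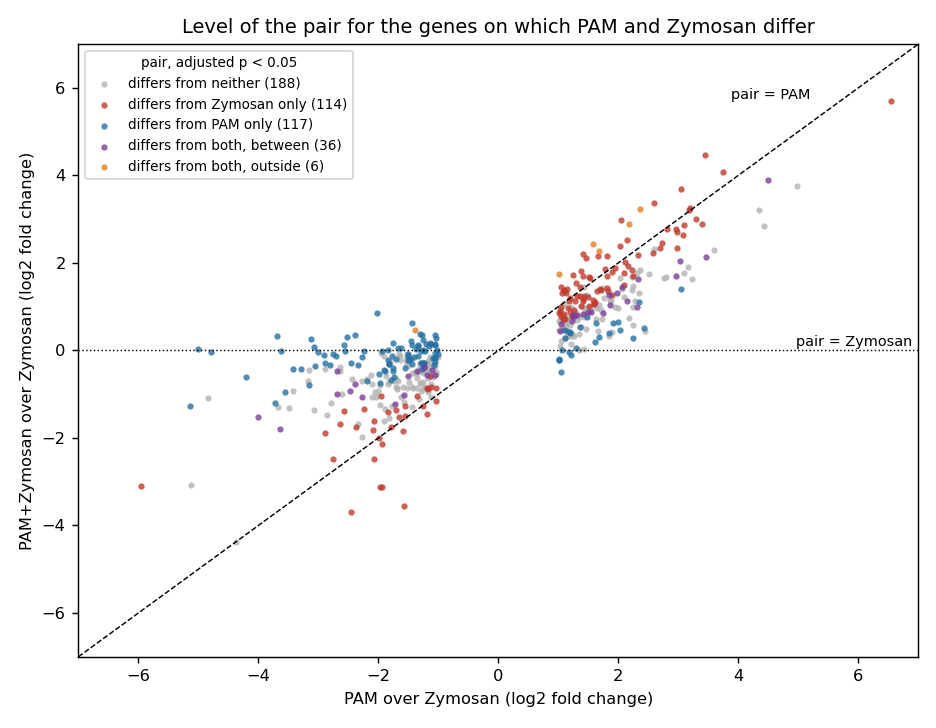
Log2 fold change of PAM over Zymosan (horizontal axis) against that of PAM+Zymosan over Zymosan (vertical axis) for the 461 genes on which the single ligands differ, 1 point a gene, coloured by which tests of the pair passed. Points on the dashed line have the pair at the PAM level and points on the dotted line at the Zymosan level; to the right the 81 genes of the PAM side follow the dashed line and to the left the 91 genes of the Zymosan side follow the dotted line. Both axes share the Zymosan libraries.

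The triplet libraries gave the same order with HMW, SeV and cGAMP. For the 223 genes higher with PAM, the triplet differed from PAM+X by a median log2 fold change of -0.35 with HMW, -0.39 with SeV and -0.33 with cGAMP, and from Zymosan+X by 0.87, 0.83 and 0.72. For the 238 genes higher with Zymosan it differed from PAM+X by 0.94, 0.80 and 0.64, and from Zymosan+X by -0.49, -0.28 and -0.28. The triplet was thus nearer the higher pair in both directions. With LPS and CpGB the genes higher with PAM did not follow, since the medians were -0.41 and -0.33 against PAM+X and only 0.18 and 0.11 against Zymosan+X. There the 2 pairs themselves differed less. PAM+X exceeded Zymosan+X by a median of 0.57 with LPS and 0.55 with CpGB, against 1.33 with HMW, 1.30 with SeV and 0.97 with cGAMP. Of the 223 genes, 86.1% with LPS and 73.1% with CpGB were higher with PAM+X than with Zymosan+X. The genes higher with Zymosan did follow, at 0.69 and 0.92 over PAM+X and -0.078 and -0.0039 against Zymosan+X.

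Inflammatory cytokines and the chemokines that draw neutrophils were higher with PAM than with Zymosan, and the pair stood close to PAM. Of the 13 tested genes of the inflammatory list, 7 differed between PAM and Zymosan (9.77% of all tested genes did), 6 of them on the PAM side and 1, Il1a, outside. The list's median log2 fold change was 2.04 for the pair over Zymosan and 0.070 over PAM, beside -0.012 and -0.021 over all tested genes. Of 14 tested chemokines, 8 differed, against the same 9.77%, 7 on the PAM side and 1, Ccl17, outside, with medians of 1.58 and 0.17. The lists share Cxcl1, Cxcl2 and Ccl3, and their members were chosen with results of these data known. Of the 13 inflammatory genes 2 were called higher than with PAM and 8 than with Zymosan, and of the 14 chemokines 1 and 8, beside 2.67% and 2.78% of all tested genes.

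Il1b encodes interleukin-1 beta. It was at 319, 362 and 259 CPM in Ctrl, 7926, 7757 and 8706 with PAM, 893, 928 and 858 with Zymosan and 8811, 8699 and 8120.4 with the pair. The pair libraries were within the range of the PAM libraries or just above it and far above Zymosan (log2 fold change over Zymosan 3.26, SE 0.13, adjusted p = 3.26e-61). Over PAM the difference was 0.070 with a 95% interval of -0.15 to 0.29. Il6, the cytokine interleukin-6, was at 97, 99.8 and 182 CPM in Ctrl, 1463, 1207 and 1339 with PAM, 138, 166 and 159 with Zymosan and 1126, 1208 and 1104 with the pair. Zymosan alone did not move Il6 past the test against Ctrl (adjusted p = 0.766), and the pair differed from PAM by -0.22 (95% interval -0.51 to 0.077). Cxcl1, a ligand of CXCR2, was at 41.6, 24.9 and 106 CPM in Ctrl, 1699, 1629 and 1845 with PAM, 239, 249.6 and 247 with Zymosan and 1863, 1643 and 1603 with the pair, with a difference from PAM of -0.026 (95% interval -0.36 to 0.31).

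Zymosan by itself raised some of these genes. Cxcl2 was at 459 ± 77.7 CPM in Ctrl, 3596 ± 352 with Zymosan, 8863 ± 563 with PAM and 8543 ± 738 with the pair (SD, n = 3). Its pair libraries overlapped those of PAM (difference -0.055, 95% interval -0.37 to 0.26). Cxcl3 was at 10887 ± 339 CPM with PAM, 1694 ± 209 with Zymosan and 8464 ± 291 with the pair, with all 3 pair libraries below those of PAM (difference -0.36, adjusted p = 0.275). Ccl22, which draws cells that bear CCR4, was at 1038 ± 126, 316 ± 36.6 and 833 ± 56.2 CPM in the same order. Tnf differed less between the ligands, at 637, 1135 and 797 CPM in Ctrl, 7565, 8114 and 8617 with PAM, 5494, 5420.0 and 5206 with Zymosan and 9190.1, 11174 and 10288 with the pair. All 3 pair libraries were above all PAM libraries, but the difference from PAM did not pass (log2 fold change 0.34, adjusted p = 0.206), and that from Zymosan did (0.93, adjusted p = 5.87e-07).

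Of 17 tested NF-kB factors and feedback genes 5 differed between the ligands (9.77% of all tested genes did), 3 of them on the PAM side (Nfkb2, Nfkbiz and Zc3h12a), with Nfkbid on the Zymosan side and Traf1 between. Cd14, a co-receptor that hands lipopeptides and LPS to TLRs, was at 346, 337 and 403 CPM in Ctrl, 2047, 2303 and 2461 with PAM, 791, 691 and 653 with Zymosan and 1863, 1753 and 1958 with the pair. All 3 pair libraries were below those of PAM, by a difference that did not pass (log2 fold change -0.29, adjusted p = 0.221), and above Zymosan (log2 fold change 1.40, adjusted p = 1.51e-15). Nfkbiz, an atypical inhibitor of NF-kB needed for Il6 transcription, was at 324 ± 45.4 CPM with PAM, 71.4 ± 31.5 with Zymosan and 253 ± 29 with the pair (log2 fold change over Zymosan 1.83, adjusted p = 6.11e-08). Zc3h12a, an RNase that degrades cytokine mRNAs, was at 258 ± 13.1, 66 ± 15.9 and 334 ± 94.8 CPM in that order, and Nfkb2, which encodes p100, at 356 ± 81.6, 156 ± 39.8 and 346 ± 45. Nfkbid, another atypical inhibitor, went the other way, with 46.7 ± 8.23, 177 ± 21 and 123 ± 51.5 CPM, and its rise over PAM was lost without PAM+Zymosan replicate 3 (adjusted p = 0.0795). The genes of the PAM side with the largest differences between the ligands were Il1b, Slco3a1, Cp, Sh3bp5, Lox and Zfp811. Slco3a1, an organic anion transporter, was at 0, 12.5 and 0 CPM in Ctrl, 262, 181 and 200.01 with PAM, 18.4, 25.6 and 18.7 with Zymosan and 84.2, 177 and 219.7 with the pair, and Cp, the copper-binding ceruloplasmin, at 13.9, 12.5 and 9.60 CPM in Ctrl, 171, 80.4 and 122 with PAM, 9.20, 12.8 and 4.67 with Zymosan and 105, 191.5 and 149.8 with the pair. In both the pair and PAM libraries overlapped and stood above every Zymosan library. The other 3 had fewer counts. Sh3bp5, an adaptor that binds the kinase BTK, was at 30.6 ± 8.58 CPM with PAM, 2.13 ± 3.69 with Zymosan and 59.7 ± 13.2 with the pair, and Lox, lysyl oxidase, at 50.9 ± 1.36, 4.62 ± 4.60 and 38.7 ± 22.2. Lox lost its call over Zymosan without PAM+Zymosan replicate 1 or 2 or Zymosan replicate 2 or 3 (adjusted p = 0.0871, 0.283, 0.182 and 0.154) and with no filter. Sh3bp5 lost its difference between PAM and Zymosan without Zymosan replicate 3 (adjusted p = 0.104). Zfp811, a zinc finger gene, had 36 counts with PAM, 0 with Zymosan and 16 with the pair, at least 5.93-fold higher with the pair than with Zymosan on a floor of 3 counts over the group.

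To show the DNA upstream of genes with these levels, the 250 bases before the RefSeq transcription start (GRCm38.p6, the build the submitters' processing notes name as mm10) were read for Il6 and Cxcl1. Capitals mark matches to the NF-kB motif GGGANNNNCC on either strand, where overlapping matches run together.
Il6 (chr5:30012864-30013113, plus strand): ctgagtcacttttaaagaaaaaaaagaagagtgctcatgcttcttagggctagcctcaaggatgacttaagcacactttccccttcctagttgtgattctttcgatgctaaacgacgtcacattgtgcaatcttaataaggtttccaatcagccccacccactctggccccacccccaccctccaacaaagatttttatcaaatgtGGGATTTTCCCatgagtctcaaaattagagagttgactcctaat
Cxcl1 (chr5:90890995-90891244, plus strand): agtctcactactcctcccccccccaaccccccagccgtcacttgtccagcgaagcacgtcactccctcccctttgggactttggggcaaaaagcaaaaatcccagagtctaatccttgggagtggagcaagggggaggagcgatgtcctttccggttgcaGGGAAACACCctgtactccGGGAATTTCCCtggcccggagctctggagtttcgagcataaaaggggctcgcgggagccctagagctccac
The Il6 window holds 2 matches, which overlap, and ends just before the start site; the Cxcl1 window holds 3, of which 2 overlap. The motif occurred in 17.6% of the 32851 windows in the table and in 26.5% of the 3614 tested genes with a window. It occurred in 23 of the 60 genes with a window among the 81 genes of the PAM side that were higher with PAM (38.3%) and in 29 of 70 genes among the 91 of the Zymosan side that were higher with Zymosan (41.4%). A match is not a binding site, and these motifs and windows were chosen after the expression values were seen.

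**Figure D4:**
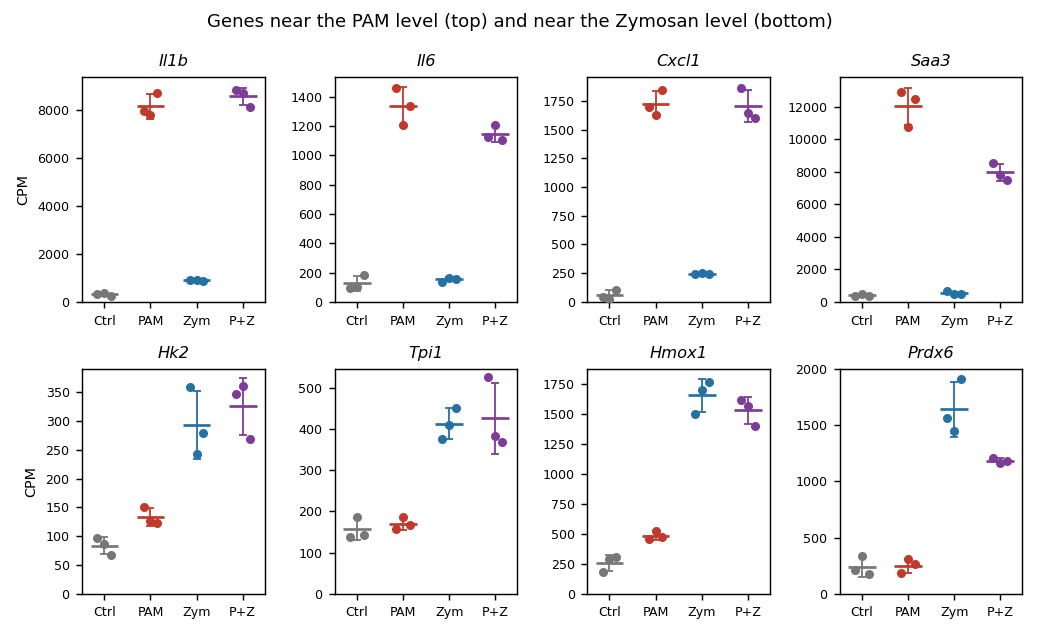
CPM (vertical axes, linear, each from 0) in the 3 libraries of Ctrl, PAM, Zymosan (Zym) and PAM+Zymosan (P+Z) for 4 genes higher with PAM (top) and 4 higher with Zymosan (bottom), with the mean as a horizontal line and the SD as a bar. For Il1b, Il6 and Cxcl1 the pair lies nearer PAM and for Hk2, Tpi1 and Hmox1 nearer Zymosan, while Saa3 and Prdx6 differ from both ligands and lie between, as Saa3 at 7971 ± 529 CPM with the pair against 12037 ± 1148 with PAM.

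In a smaller set of 33 genes that were higher with Zymosan than with PAM, the pair was below Zymosan and did not pass the test against PAM. Their median position was 0.84, and Cd93 and Gadd45g were about midway at 0.54 and 0.52. Cd300lb, an activating receptor of myeloid cells, was at 332, 237 and 298 CPM in Ctrl, 32.8, 45.2 and 5.56 with PAM, 147, 218 and 117 with Zymosan and 21.1, 0 and 15 with the pair. The pair libraries were below every Zymosan library (log2 fold change -3.69, adjusted p = 2.76e-08), and PAM had lowered the gene against Ctrl by itself (log2 fold change -3.32). Ptgs1, the constitutive cyclooxygenase, was at 165 ± 67.8 CPM in Ctrl, 11.1 ± 5.13 with PAM, 91 ± 17 with Zymosan and 27.4 ± 21.8 with the pair, the opposite of Ptgs2 (log2 fold change over Zymosan -1.88, adjusted p = 0.0188). Alox5ap, which serves leukotriene synthesis, was at 83.5 ± 15.6, 188 ± 51.4 and 71 ± 34.2 CPM with PAM, Zymosan and the pair (log2 fold change over Zymosan -1.46, adjusted p = 0.000643). Ptgs1 lost its call without PAM+Zymosan replicate 2 or 3 or Zymosan replicate 1 (adjusted p = 0.120, 0.214 and 0.0643) and Alox5ap without PAM+Zymosan replicate 3 (adjusted p = 0.0544). Gadd45g, Adssl1, Lmna and Cd93, also named by size in this set, were below Zymosan with adjusted p-values of 0.0100, 0.0120, 0.0209 and 0.0433. Gadd45g lost its call without PAM+Zymosan replicate 2 or 3 or Zymosan replicate 3 (adjusted p = 0.0843, 0.0761 and 0.205), Adssl1 without PAM+Zymosan replicate 1 or 2 or Zymosan replicate 3 (adjusted p = 0.0649, 0.0625 and 0.249), Lmna without PAM+Zymosan replicate 1 or 3 or Zymosan replicate 2 or 3 (adjusted p = 0.118, 0.110, 0.123 and 0.0735) and Cd93 without PAM+Zymosan replicate 2 or 3 or Zymosan replicate 1, 2 or 3 (adjusted p = 0.105, 0.311, 0.0683, 0.0634 and 0.194). Lmna and Cd93 were also lost with no filter, and Gadd45g and Cd93 by DESeq2. Adssl1 also lost its difference between PAM and Zymosan without Zymosan replicate 3 (adjusted p = 0.0798). Fos, the AP-1 subunit, was at 109.6 ± 3.49 CPM in Ctrl, 20 ± 8.99 with PAM, 63.4 ± 11.3 with Zymosan and 4.12 ± 3.76 with the pair (log2 fold change over Zymosan -3.56, adjusted p = 0.000104). Batf, another member of the AP-1 family, did the reverse, with 77.8 ± 35.7, 8.31 ± 1.66 and 58.4 ± 13.3 CPM with PAM, Zymosan and the pair (log2 fold change over Zymosan 2.64, adjusted p = 0.00321).

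Glycolytic genes were higher with Zymosan than with PAM, and the pair stood close to Zymosan. All 19 genes of the glycolysis and hypoxia list were tested, 12 differed between the ligands (9.77% of all tested genes did) and 9 of those were on the Zymosan side. The list's median log2 fold change was 0.95 for the pair over PAM, with 7 genes called higher (2.67% of all tested genes were) and none lower, and -0.20 over Zymosan, with 1 called lower. Against Ctrl the median was 1.00 with Zymosan, -0.0013 with PAM and 0.95 with the pair, beside medians from 0.011 to 0.026 over all tested genes. RLE factors shift all contrasts with Ctrl by -0.13 to -0.15 and library size alone by -0.14 to -0.22.

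Hk2, hexokinase 2, which starts glycolysis, was at 97, 87.3 and 67.2 CPM in Ctrl, 151, 126 and 122 with PAM, 359, 243 and 279.9 with Zymosan and 347, 361 and 269.7 with the pair. The pair libraries overlapped those of Zymosan and were all above those of PAM (log2 fold change over PAM 1.27, SE 0.22, adjusted p = 5.42e-06; over Zymosan 0.15, 95% interval -0.25 to 0.54). Tpi1, triosephosphate isomerase, was at 139, 187 and 144 CPM in Ctrl, 157, 186 and 167 with PAM, 377, 409.5 and 453 with Zymosan and 526, 383 and 369.6 with the pair, and Pgam1, phosphoglycerate mutase, at 374, 412 and 346 CPM in Ctrl, 282, 407 and 289 with PAM, 690.2, 896 and 718 with Zymosan and 779, 773 and 754 with the pair. Over PAM the log2 fold changes were 1.27 and 1.22 (adjusted p = 9.25e-06 and 7.86e-08), and over Zymosan -0.012 and -0.0055 (95% intervals -0.41 to 0.39 and -0.34 to 0.33). Neither enzyme changed with PAM against Ctrl past the test, and both were higher with the pair than in Ctrl. Slc2a1, the glucose transporter GLUT1, was at 250.3 ± 42.4 CPM with PAM, 529 ± 54.7 with Zymosan and 501 ± 6.57 with the pair (SD, n = 3), and Pkm, pyruvate kinase, at 958 ± 105, 2259.7 ± 61.1 and 1858 ± 16.2 CPM. Their log2 fold changes over PAM, 0.99 and 0.95, passed the test (adjusted p = 0.000581 and 3.08e-08) and were just under the fold threshold.

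Egln3, a prolyl hydroxylase that marks hypoxia-inducible factors for destruction, was at 13.9, 0 and 0 CPM in Ctrl, 6.56, 0 and 0 with PAM, 46, 32 and 60.6 with Zymosan and 73.7, 14.7 and 20 with the pair. It had 1 count over the PAM libraries and 13 with the pair, a ratio of 16 (counting interval 2.41 to 681), and the pair's call over PAM was lost without PAM+Zymosan replicate 1 or PAM replicate 2 or 3 (adjusted p = 0.230, 0.119 and 0.112). Vegfa, the vascular growth factor, left the list's pattern. It was at 111, 262 and 154 CPM in Ctrl, 6.56, 20.1 and 16.7 with PAM, 129, 191.97 and 243 with Zymosan and 73.7, 36.8 and 59.9 with the pair. PAM alone lowered it against Ctrl (log2 fold change -3.48, adjusted p = 7.56e-09), and the pair was below Zymosan (log2 fold change -1.80, adjusted p = 0.000151). Its difference from PAM, 1.84, was lost without PAM+Zymosan replicate 1 or 3 or PAM replicate 1, 2 or 3 (adjusted p = 0.141, 0.181, 0.185, 0.0727 and 0.109), with library size alone and with no filter. Hk1 lost its call over PAM without PAM+Zymosan replicate 2 or 3 or PAM replicate 1 or 2, at an adjusted p up to 0.231, and Bnip3 without PAM+Zymosan replicate 1 or any of the PAM replicates, at up to 0.491, so that Hk2, Tpi1 and Pgam1 are the 3 of the 7 genes called higher than with PAM whose calls held with any 1 library left out.

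The windows before the start of Hk2 and Egln3 are shown with capitals at matches to ACGTG, the core letters of the hypoxia response element, on either strand.
Hk2 (chr6:82774455-82774704, minus strand): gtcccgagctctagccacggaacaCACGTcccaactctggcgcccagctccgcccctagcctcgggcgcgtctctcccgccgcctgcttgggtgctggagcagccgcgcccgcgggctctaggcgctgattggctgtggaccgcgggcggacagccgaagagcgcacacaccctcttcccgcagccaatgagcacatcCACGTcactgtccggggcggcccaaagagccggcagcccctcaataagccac
Egln3 (chr12:54203875-54204124, minus strand): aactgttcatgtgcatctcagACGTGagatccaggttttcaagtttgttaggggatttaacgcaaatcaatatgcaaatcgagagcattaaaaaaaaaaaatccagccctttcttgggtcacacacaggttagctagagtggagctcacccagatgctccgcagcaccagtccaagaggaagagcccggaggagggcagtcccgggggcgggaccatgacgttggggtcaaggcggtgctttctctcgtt
Hk2 holds 2 matches and Egln3 holds 1. Of the 19 genes of the list 11 hold the motif (57.9%), against 27.5% of tested genes with a window and 16.6% of all windows. Among genes of the Zymosan side higher with Zymosan it was in 24 of 70 (34.3%), and among genes of the PAM side higher with PAM in 13 of 60 (21.7%). No factor was measured here, and the shares were not tested.

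Some genes of the Nrf2 and oxidative stress list also stood near the Zymosan level. Of 15 tested, 8 differed between the ligands and 6 of them were on the Zymosan side; Ncf1, a subunit of the phagocyte oxidase, is the member of these 6 that was higher with PAM. In all, 4 were called higher than with PAM, beside 2.67% of all tested genes. Of all tested genes 9.77% differed between the ligands. The list's median was 0.47 for the pair over PAM and -0.21 over Zymosan. Hmox1, heme oxygenase 1, was at 180.1, 287 and 307 CPM in Ctrl, 459, 528 and 472 with PAM, 1500.0, 1702 and 1768 with Zymosan and 1621, 1569 and 1403 with the pair. The pair libraries overlapped Zymosan and were at least 1403 CPM against at most 528 with PAM (log2 fold change 1.64, SE 0.19, adjusted p = 4.05e-13 over PAM). Sqstm1, the autophagy receptor p62, was at 693 ± 118 CPM with PAM, 1896 ± 98.5 with Zymosan and 1519.6 ± 119.9 with the pair. Srxn1, sulfiredoxin, was at 287 ± 42.7, 975 ± 81.1 and 705 ± 156 CPM. Gclc, the first enzyme of glutathione synthesis, was called over PAM as well (log2 fold change 1.12), and its call was lost without PAM+Zymosan replicate 2 or 3 or PAM replicate 2 or 3 (adjusted p = 0.316, 0.0766, 0.152 and 0.178). It was also lost with RLE factors, with library size alone, with no filter and by DESeq2. The log2 fold changes of Sqstm1 and Srxn1 over PAM were 1.12 and 1.28 (adjusted p = 1.31e-09 and 6.07e-08). Sod2, the mitochondrial superoxide dismutase, was on the PAM side instead, at 2800.2 ± 148, 1372 ± 40.8 and 2527 ± 229.6 CPM.

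Among immediate early genes, 5 of 11 tested differed between the ligands (9.77% of all tested genes did) and 3, Atf3, Maff and Dusp1, were on the Zymosan side. Atf3, a stress-induced transcription factor, was at 582, 536 and 758 CPM in Ctrl, 243, 241 and 217 with PAM, 598, 665 and 648 with Zymosan and 516, 575 and 584 with the pair. PAM alone lowered it against Ctrl (log2 fold change -1.44, adjusted p = 1.32e-10), and the pair libraries were above every PAM library and below those of Zymosan. Maff, a small Maf protein, was at 43.7 ± 23.3 CPM with PAM, 157 ± 60.3 with Zymosan and 171 ± 43.2 with the pair (log2 fold change over PAM 1.84, adjusted p = 0.000278). Dusp1 lost its call over PAM without PAM+Zymosan replicate 1 or 2 or PAM replicate 1, 2 or 3 (adjusted p = 0.0629, 0.267, 0.151, 0.115 and 0.0650) and with no filter. The genes named by size on the Zymosan side include G530011O06Rik, a gene without a name by function. It was at 0, 12.5 and 19.2 CPM in Ctrl, 19.7, 10.1 and 11.1 with PAM, 331, 326 and 471 with Zymosan and 389.5, 464 and 299.65 with the pair, with the pair and Zymosan libraries overlapping (log2 fold change over PAM 4.76, SE 0.42, adjusted p = 1.09e-20; over Zymosan -0.034). Fam198b, Tnfrsf26, Ednrb and Emp1 had 1, 4, 1 and 0 counts with PAM and 16, 20, 18 and 10 with the pair. Their calls over PAM were lost without PAM+Zymosan replicate 2 or PAM replicate 2 (adjusted p = 0.114 and 0.0524) for Fam198b, without PAM+Zymosan replicate 1 or 2 or PAM replicate 2 or 3 (adjusted p = 0.0852, 0.0542, 0.113 and 0.102) for Tnfrsf26, without PAM+Zymosan replicate 2 or PAM replicate 2 (adjusted p = 0.0701 and 0.0518) for Ednrb and without PAM+Zymosan replicate 2 or PAM replicate 2 or 3 (adjusted p = 0.0808, 0.0543 and 0.0532) for Emp1. The difference between PAM and Zymosan, which places a gene in its class, was itself lost without PAM replicate 2 or Zymosan replicate 3 (adjusted p = 0.0622 and 0.0731) and by DESeq2 for Ednrb, and without Zymosan replicate 2 (adjusted p = 0.156) for Emp1.

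In 26 genes that were higher with PAM, the pair differed from PAM only. Tspan3, a tetraspanin, was at 69.3, 62.4 and 48 CPM in Ctrl, 256, 261 and 183 with PAM, 55.2, 51.2 and 65.3 with Zymosan and 84.2, 81 and 105 with the pair. Every pair library was below every PAM library (log2 fold change -1.33, adjusted p = 0.000349). Arhgef3, an exchange factor for small GTPases, was at 102 ± 27.1 CPM with PAM, 20 ± 11.5 with Zymosan and 26 ± 9.43 with the pair, and Xylt2, a xylosyltransferase of proteoglycan synthesis, at 115 ± 31, 18.2 ± 12.6 and 28.5 ± 7.00 CPM. Irak3, an inhibitor of TLR signalling also known as IRAK-M, was at 13.9, 12.5 and 0 CPM in Ctrl, 177, 151 and 161 with PAM, 36.8, 70.4 and 42 with Zymosan and 73.7, 29.5 and 79.9 with the pair. The pair was below PAM (log2 fold change -1.37, adjusted p = 0.00429), a call lost without PAM+Zymosan replicate 2 (adjusted p = 0.102). Mefv, Heatr6 and Itsn1, named by size too, were below PAM with adjusted p-values of 0.0459, 0.0137 and 0.0326, and none of these calls held with each library left out. Mefv was lost without PAM+Zymosan replicate 1, 2 or 3 or PAM replicate 1 or 3 (adjusted p = 0.108, 0.0897, 0.219, 0.192 and 0.116), Heatr6 without PAM+Zymosan replicate 1 or 2 or PAM replicate 1 (adjusted p = 0.141, 0.0607 and 0.0516) and Itsn1 without PAM+Zymosan replicate 1, 2 or 3 or PAM replicate 1, 2 or 3 (adjusted p = 0.0878, 0.0960, 0.134, 0.0677, 0.0792 and 0.0692). Mefv and Heatr6 were also lost with no filter.

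In 36 genes the pair lay between the ligands and differed from both. Marco, a scavenger receptor for microbial particles, was at 360.1, 324 and 326 CPM in Ctrl, 5544, 5098 and 4723 with PAM, 663, 608 and 616 with Zymosan and 2621, 2364 and 2782 with the pair. No group overlapped another, and the pair was lower than PAM (log2 fold change -0.98, adjusted p = 4.07e-06) and higher than Zymosan (2.05, adjusted p = 1.11e-17). Saa3, an acute phase protein, had the largest difference between PAM and Zymosan among these genes, at 360.1, 461 and 384 CPM in Ctrl, 12899, 10734 and 12479 with PAM, 644, 486 and 495 with Zymosan and 8558, 7822 and 7531 with the pair. Its pair libraries were below all PAM libraries (-0.60, adjusted p = 0.00796), a call lost without PAM+Zymosan replicate 3 or PAM replicate 1 (adjusted p = 0.0533 and 0.0510). Lmo4, a LIM domain cofactor, was at 706 ± 50.5 CPM with PAM, 136 ± 39.2 with Zymosan and 280.4 ± 26.6 with the pair. Cebpd, a transcription factor of the acute phase, was at 215 ± 60.1, 24.6 ± 13.4 and 83.9 ± 27.3 CPM, Blnk, an adaptor of B cell receptor signalling, at 262 ± 62.5, 47.7 ± 25.4 and 151 ± 59.9, and the cytokine Il18 at 101 ± 40.3, 6.8 ± 7.01 and 35.2 ± 17.6. The differences from PAM were lost without PAM replicate 3 (adjusted p = 0.105) for Cebpd, without PAM+Zymosan replicate 1 or 2 or PAM replicate 3 (adjusted p = 0.296, 0.0950 and 0.351) for Blnk and without PAM+Zymosan replicate 1 or 2 or PAM replicate 1 or 3 (adjusted p = 0.128, 0.148, 0.176 and 0.142) for Il18. Those from Zymosan were lost without PAM+Zymosan replicate 3 or Zymosan replicate 1 (adjusted p = 0.269 and 0.0817) for Cebpd and without PAM+Zymosan replicate 2 or 3 or Zymosan replicate 1 or 2 (adjusted p = 0.0517, 0.455, 0.148 and 0.142) for Il18. With no filter Blnk and Il18 lost their differences from PAM, and Il18 its difference from Zymosan, which was also lost with library size alone and by DESeq2.

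Genes higher with Zymosan and held between in the pair included Fabp4 and Mgll of lipid handling and Atp6v0d2 of the lysosome. Fabp4, a fatty acid binding protein, was at 554, 449 and 557 CPM in Ctrl, 72.2, 156 and 106 with PAM, 617, 653 and 644 with Zymosan and 411, 376 and 255 with the pair. PAM alone lowered it against Ctrl (log2 fold change -2.18) and the pair was above PAM (1.54) and below Zymosan (-0.94, adjusted p = 0.000154). Mgll, monoacylglycerol lipase, was at 89.8 ± 37.4 CPM with PAM, 565 ± 104 with Zymosan and 283 ± 67.9 with the pair, and Atp6v0d2, a subunit of the proton pump V-ATPase, at 98.4 ± 24.6, 537 ± 102 and 318 ± 58 CPM. Prdx6, a peroxiredoxin, was at 208, 337 and 173 CPM in Ctrl, 184, 307 and 261 with PAM, 1564, 1446 and 1913 with Zymosan and 1211, 1164 and 1179 with the pair, above PAM by 2.21 and below Zymosan by a difference (-0.48, adjusted p = 0.0316) that was lost without PAM+Zymosan replicate 1, 2 or 3 or Zymosan replicate 3 (adjusted p = 0.0636, 0.103, 0.111 and 0.365), with no filter and by DESeq2. Atp6v0d2 lost its difference from Zymosan without PAM+Zymosan replicate 3 (adjusted p = 0.120).

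The 6 genes outside the range of both ligands were all above it, by less than the fold threshold that defines above both. Il1a, interleukin-1 alpha, was at 305, 212 and 134 CPM in Ctrl, 2526, 2172 and 2289 with PAM, 893, 787 and 690.5 with Zymosan and 4189.8, 4331 and 4030.2 with the pair. Its pair libraries were above every PAM library and every Zymosan library (log2 fold change 0.85 over PAM, adjusted p = 1.78e-07, and 2.42 over Zymosan), whereas those of Il1b overlapped PAM. Socs3, a feedback inhibitor of IL-6 signalling, was at 69.3, 12.5 and 76.8 CPM in Ctrl, 433, 452 and 372 with PAM, 73.6, 122 and 79.3 with Zymosan and 779, 656 and 654 with the pair, with a rise of 0.71 over PAM (adjusted p = 0.00155). Acp5, an acid phosphatase, rose by 0.73 over PAM (adjusted p = 6.84e-06).

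Il1rn, the natural antagonist of the interleukin-1 receptor, was the outside gene that was higher with Zymosan, at 789.5, 861 and 1056 CPM in Ctrl, 1115, 1227 and 1228 with PAM, 3258, 2848 and 3294 with Zymosan and 4811, 4419 and 3865 with the pair. It exceeded PAM in every library (1.87, adjusted p = 5.68e-20), and its small rise over Zymosan (0.47) was lost without PAM+Zymosan replicate 1 or 2 or Zymosan replicate 1, 2 or 3 (adjusted p = 0.217, 0.124, 0.0756, 0.218 and 0.0863), and with library size alone and by DESeq2. The agonists Il1a and Il1b thus stood highest with PAM among the single ligands and the antagonist with Zymosan, and in the pair the mean of each of the 3 was at or above the higher single level. Casp4, a caspase that senses LPS in the cytosol, was on the PAM side, and its rise over Zymosan of 1.30 was lost without PAM+Zymosan replicate 1 or Zymosan replicate 3 (adjusted p = 0.103 and 0.164). The difference between PAM and Zymosan that places it there was lost without PAM replicate 1 or 2 or Zymosan replicate 1 or 3 (adjusted p = 0.238, 0.0681, 0.0772 and 0.249). It was also lost with library size alone, with no filter and by DESeq2. Ccl17, a chemokine for CCR4, was at 171 ± 51.6 CPM with PAM, 33.2 ± 6.63 with Zymosan and 332 ± 95.2 with the pair, and Fcgr2b, the inhibitory Fc receptor, at 573 ± 4.64, 187 ± 46.7 and 877 ± 84.7 CPM. Their rises over PAM were lost without PAM+Zymosan replicate 1 or PAM replicate 1 (adjusted p = 0.149 and 0.142) for Ccl17 and without PAM+Zymosan replicate 1 or 2 or PAM replicate 1, 2 or 3 (adjusted p = 0.119, 0.0956, 0.0677, 0.0826 and 0.0847) for Fcgr2b. DESeq2 did not call that of Fcgr2b either.

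The receptors of both ligands moved in opposite directions with PAM. Tlr2 was at 13.9, 99.8 and 96 CPM in Ctrl, 439.6, 478 and 372 with PAM, 184, 224 and 196 with Zymosan and 389.5, 279.9 and 399.53 with the pair. PAM raised it against Ctrl (log2 fold change 2.53) and so did Zymosan (1.44). The pair differed from PAM by -0.27 (95% interval -0.63 to 0.10) and was above Zymosan (0.82, adjusted p = 0.00433), a call lost without PAM+Zymosan replicate 3 (adjusted p = 0.102). Clec7a, which encodes Dectin-1, was at 1122, 910.5 and 893 CPM in Ctrl, 262, 256 and 278 with PAM, 745, 787 and 746 with Zymosan and 526, 611 and 399.53 with the pair. PAM lowered it against Ctrl (log2 fold change -1.86, adjusted p = 4.85e-18), and the pair stood between PAM and Zymosan with no overlap of the 3 groups. It was above PAM by 0.92 (adjusted p = 0.000152), and its difference from Zymosan, -0.60 (adjusted p = 0.00974), was lost without PAM+Zymosan replicate 3 (adjusted p = 0.276). Egr2, a transcription factor induced by the Syk and NFAT route, was at 81.9 ± 15.9 CPM in Ctrl, 28.1 ± 1.98 with PAM, 133 ± 21.8 with Zymosan and 51.5 ± 14.1 with the pair. The pair was below Zymosan (-1.35, adjusted p = 0.0182), and this was lost without PAM+Zymosan replicate 2 or Zymosan replicate 3 (adjusted p = 0.128 and 0.137).

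Of 13 tested genes of TLR1/2 sensing and MyD88 signalling, 1 was called higher over Zymosan (Cd14) and 1 lower against PAM (Irak3), beside 2.78% and 0.847% of all tested genes, with medians of -0.29 over PAM and 0.093 over Zymosan. Of 13 tested genes of the Dectin-1, Syk and CARD9 list none was called over PAM by edgeR's quasi-likelihood test (5 at an unadjusted p under 0.05, 0 by DESeq2). Without the fold threshold 4 passed over PAM, Clec7a and Clec4n higher (log2 fold changes 0.92 and 0.88) and Syk and Prkcd lower (-0.41 and -0.42). Egr2 was called lower against Zymosan, and the list's medians were 0.076 over PAM and 0.058 over Zymosan. Of the 15 interferon-response genes none was called between PAM and Zymosan by the same test with the fold threshold (2 at an unadjusted p under 0.05, 0 by DESeq2). Usp18 and Mx1 passed the test without it, at log2 fold changes of 0.96 and 0.45 (adjusted p = 0.0196 and 0.0428). For Usp18 this was lost without PAM replicate 3 or Zymosan replicate 3 (adjusted p = 0.194 and 0.227). Usp18 was called lower in the pair than with PAM (-1.03, adjusted p = 0.0304), which was lost without PAM+Zymosan replicate 1, 2 or 3 or PAM replicate 1 or 3 (adjusted p = 0.0641, 0.0569, 0.223, 0.0646 and 0.234) and with no filter. Cxcl10 and Ifit1 were at 370.4 ± 36.4 and 317 ± 36.4 CPM with the pair against 558 ± 62.6 and 344 ± 44.5 with PAM, and differed from neither ligand past the test.

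Of 12 tested maturation genes 3 differed between the ligands (9.77% of all tested genes did), all on the PAM side: Ccl22, Cd40 and Fscn1. Cd40, a costimulatory receptor, was at 360.5 ± 33.9 CPM with PAM, 122 ± 17 with Zymosan and 239 ± 61.6 with the pair, and its call over Zymosan was lost without PAM+Zymosan replicate 3 or Zymosan replicate 3 (adjusted p = 0.0612 and 0.0803). The 9 tested genes of MHC class II presentation had medians of 0.026 over PAM and -0.025 over Zymosan with none called (0 and 1 at an unadjusted p under 0.05, 0 by DESeq2), and the 17 ribosomal protein genes 0.024 and 0.019 with none called (0 at an unadjusted p under 0.05, 0 by DESeq2), by edgeR's quasi-likelihood test. The lysosome list had medians of 0.14 and -0.31, with Atp6v0d2 called over PAM. Of 13 sterol genes, Idi1 and Fdft1 were lower than with PAM and Hmgcs1 lower than with Zymosan, beside 0.847% and 1.1% of all tested genes. Fdft1 lost its call without PAM+Zymosan replicate 1 or 3 or PAM replicate 3 (adjusted p = 0.121, 0.0807 and 0.120) and Hmgcs1 without PAM+Zymosan replicate 2 or 3 or Zymosan replicate 2 or 3 (adjusted p = 0.168, 0.192, 0.204 and 0.346). With no filter both were lost, and Hmgcs1 by DESeq2 too. Idi1, an enzyme of isoprenoid synthesis, was at 177 ± 63.1 CPM with PAM, 90.9 ± 21.4 with Zymosan and 77.9 ± 18 with the pair (log2 fold change over PAM -1.23, adjusted p = 0.00180).

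**Figure D5:**
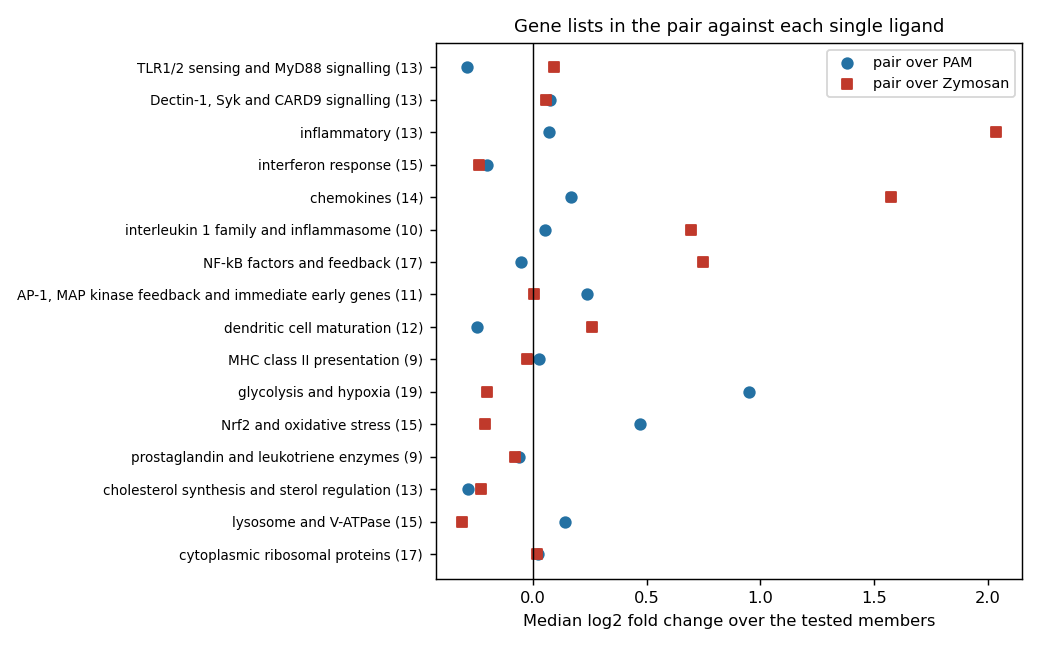
Median log2 fold change over the tested members of 16 gene lists (horizontal axis) for PAM+Zymosan over PAM (blue circles) and over Zymosan (red squares), with the number of tested members in brackets. The inflammatory and chemokine lists lie near 0 over PAM and well above 0 over Zymosan, and the glycolysis list lies near 0 over Zymosan and above 0 over PAM.

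Cytokines with few reads could be placed less well. Il10 had 1 count with PAM, 3 with Zymosan, 0 in Ctrl and 12 with the pair, where all 3 libraries were above 0 (42.1, 29.5 and 20 CPM). The ratio of pair to PAM was 14.8 (counting interval 2.19 to 632) and that of pair to Zymosan 4.45 (counting interval 1.20 to 24.6). Only the former passed the test (adjusted p = 0.0201 against 0.171), and it was lost without PAM+Zymosan replicate 1 or 2 or PAM replicate 1 or 2 (adjusted p = 0.0766, 0.0552, 0.0815 and 0.115) and with no filter. Il12b was at 28.6 ± 3.89 CPM with PAM, 9.87 ± 3.84 with Zymosan and 32.7 ± 18.3 with the pair (SD, n = 3), with 15, 5 and 13 counts, and a difference from either ligand was not detectable at this depth (adjusted p = 0.977 and 0.581).

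Finally, the pair was compared with the sum of both single effects on the log2 scale, which does use Ctrl. The interaction, pair minus PAM minus Zymosan plus Ctrl, was called at 200 genes (4.24% of those tested, adjusted p under 0.05), 151 below the sum (3.2%) and 49 above it (1.04%). The split was 118 and 69 with RLE factors and 121 and 65 with library size alone. Of the 13 inflammatory genes 8 were below the sum and none above it. With 1 library left out, Ccl3 lost its interaction call in 6 runs (adjusted p up to 0.157). Il1a lost it without Ctrl replicate 3 (adjusted p = 0.206) and Cxcl1 without Ctrl replicate 2 (adjusted p = 0.0501). Of the 15 lysosomal genes 4 (Ctsa, Ctsd, Ctsl and Atp6v0d2) were above the sum and none below. Without PAM+Zymosan replicate 3 the calls of the cathepsins Ctsd and Ctsl were both lost (adjusted p = 0.0873 and 0.237). Both were also lost without Zymosan replicate 2, which leaves 2 of the 4. Genes that each ligand raised by itself are among those below the sum. Clec4e, the C-type lectin Mincle, was at 384 ± 66.7 CPM in Ctrl, 3891 ± 261 with PAM, 2686 ± 197 with Zymosan and 3474 ± 181 with the pair (interaction -2.97, adjusted p = 5.36e-35). Cxcl2 had an interaction of -3.02 (SE 0.28, adjusted p = 4.30e-19) and Tnf of -2.31 (SE 0.24, adjusted p = 4.76e-15). Of the 10 genes above both single ligands, Dab2 had an interaction that passed and the other 9 did not. Ccl4 had 0.70 (adjusted p = 0.117) and Ptgs2 -1.08 (adjusted p = 0.557). The interaction rests on the shallow Ctrl libraries, which the comparisons of the pair with PAM and Zymosan do not use.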

How the data were processed

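RNA was measured by UMI sequencing in 64 groups of 3 libraries. Counts of UMIs per gene are as deposited, not normalised, and per the submitters' processing notes the tools and build include BWA 0.7.15 and mm10. The counter and its filters are not given in the sources used here. Totals run from 46564 to 610234 counts with a median of 171616, so genes with few counts carry wide error, and intervals from counts cover counting error only.

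With edgeR 4.0.16 in R 4.3.3, genes were filtered by filterByExpr (4720 of 23481, holding 95.7% of UMIs), scaled by TMM and fitted over all groups with 128 residual degrees of freedom. P-values come from the quasi-likelihood test with Benjamini-Hochberg over all tested genes, at 0.05 and a log2 fold change of 1 or more in size, and without that minimum for the interaction and the classes of level. The steps were tested on simulated data.

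Genes named in the text are those above or below both ligands, the 6 with the largest differences between the ligands in each class and direction with at least 20 CPM in the higher single ligand, 6 interactions in each direction, up to 4 called members of each list, and 20 fixed names, of which Il23a did not pass the filter. 1 gene that the rule names is not reported here. Slc2a1, Pkm, Hk1, Bnip3, Sod2, Ncf1, Fos, Batf, Fscn1, Traf1, Clec4e, Mx1, Clec4n, Syk, Prkcd, Ctsa, Ctsd and Ctsl were chosen after their values were seen, as were the promoters. The comparison and the lists were chosen with earlier results of these data known. Alternatives were RLE factors, library size alone, no filter, DESeq2 1.42.0, the 4 groups alone, a replicate block, thinning to 46564 counts, no fold threshold and leaving libraries out.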

Additional observations from a re-analysis of the deposited data

Results flagged for a closer look

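The response to Zymosan differed with PAM present, by the interaction test with Ctrl, at 200 genes. The 6 most negative named interactions on the log2 scale were Med11 -5.77, Ampd3 -5.70, Kdm3b -4.28, Irak3 -3.94, Papd7 -3.92 and Oas2 -3.58. All 6 genes were near the limit of detection in Ctrl. Med11 and Ampd3 had 0 counts over the Ctrl libraries, so that these fitted values are no bounds, and against a floor of 3 counts over the group the level of Ampd3 was higher at least 5.31-fold with PAM, 6.60-fold with Zymosan and 11.1-fold with the pair, and Med11 at least 4.51-fold, 1.78-fold and 2.38-fold. Kdm3b and Papd7 had 1 count in Ctrl and Oas2 and Irak3 had 2. Oas2, an interferon-induced sensor of double-stranded RNA, was at 58.7 ± 8.21 CPM with PAM, 51 ± 37.9 with Zymosan and 26.5 ± 25.1 with the pair.

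The most positive named interactions were Emp1 5.29, Arhgap25 3.94, Rasa3 3.49, Dab2 3.43, Rcbtb2 3.38 and Uhrf2 3.37. Emp1 had 0 counts with PAM, so its fitted value is no bound, and it was at least 4.11-fold higher with the pair than with PAM. Arhgap25, a GTPase-activating protein for Rac, was at 540.2, 461 and 557 CPM in Ctrl, 6.56, 35.2 and 11.1 with PAM, 64.4, 154 and 257 with Zymosan and 52.6, 139.9 and 94.9 with the pair. Both ligands lowered it and the pair lay between them, above PAM (log2 fold change 2.36, adjusted p = 7.23e-05), where the sum of both effects would have lain far below. Arhgap25 and Dab2 kept their interaction calls under every alternative run, and Irak3 and Papd7 under all but thinning.

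The other calls each depended on single libraries. Med11 was lost without PAM+Zymosan replicate 3 or PAM replicate 2 or Zymosan replicate 1 or 2 or Ctrl replicate 1, 2 or 3 (adjusted p = 0.0664, 0.0693, 0.0821, 0.110, 0.0756, 0.0849 and 0.121), Ampd3 without PAM replicate 3 or Ctrl replicate 1, 2 or 3 (adjusted p = 0.0613, 0.0872, 0.0982 and 0.147) and Kdm3b without PAM+Zymosan replicate 3 or PAM replicate 1 or 2 or Zymosan replicate 2 or 3 or Ctrl replicate 1 or 3 (adjusted p = 0.119, 0.0642, 0.0847, 0.0661, 0.0524, 0.0921 and 0.154). Oas2 was lost without Zymosan replicate 2 (adjusted p = 0.0591), Emp1 without PAM+Zymosan replicate 1 or 2 or PAM replicate 1, 2 or 3 or Zymosan replicate 1 or 3 or Ctrl replicate 1 (adjusted p = 0.0503, 0.116, 0.0936, 0.116, 0.103, 0.0750, 0.0829 and 0.565), Rasa3 without PAM+Zymosan replicate 3 or PAM replicate 3 (adjusted p = 0.109 and 0.0570), Rcbtb2 without PAM+Zymosan replicate 3 (adjusted p = 0.0980) and Uhrf2 without PAM+Zymosan replicate 3 or PAM replicate 3 or Zymosan replicate 3 or Ctrl replicate 3 (adjusted p = 0.0986, 0.0849, 0.109 and 0.204). Med11, Emp1, Rasa3 and Uhrf2 were also lost with no filter on low counts.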

How the results depend on the processing

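Calls of named genes were followed here by an adjusted p under 0.05 alone, without the fold threshold. None of 217 such calls changed direction in any alternative checked. The runs without 1 replicate number of every group were not checked for named genes. The median of all genes against Ctrl turned negative with RLE factors (-0.10, -0.11 and -0.13 for PAM, Zymosan and the pair) and with library size alone (-0.15, -0.11 and -0.20), which also turned the split of the pair against Ctrl to 283 higher and 382 lower. Thinning all libraries to 46564 counts lowered every count: 55 genes were called over PAM, 72 over Zymosan, 204 for PAM over Zymosan, 371 for PAM, 136 for Zymosan and 347 for the pair against Ctrl, 69 for the interaction, 4 above both and 0 below both (by edgeR), 15 above both pairs over the 5 added ligands (42 unthinned), and 5 of the 10 genes above both pairs with HMW, with a median position of 0.70 for genes higher with PAM. That median was 0.63 with library size alone. Library size alone and the 4 groups alone each gave 2 genes below both. Without the fold threshold 305 genes passed over PAM, 300 over Zymosan and 22 above both. With single libraries or 1 replicate number left out, the counts ranged from 94 to 166 over PAM, 100 to 182 over Zymosan, 316 to 463 between the ligands, 455 to 657, 175 to 296 and 425 to 632 for PAM, Zymosan and the pair against Ctrl, 103 to 189 for the interaction, 4 to 11 above both, 0 to 3 below both, 23 to 53 over the added ligands and 6 to 8 with HMW; the median positions ranged from 0.63 to 0.71 and from 0.26 to 0.35. The cause was not tested where libraries were left out, other than that fewer samples were used. The lowest counts came without replicate 2 (94) or replicate 3 (100) of every group. Of these 217 calls, over 99 named genes, 107 passed in every alternative checked, 41 were lost with thinning only and 69 elsewhere. A call that missed only the fold threshold is not counted as lost there, as for Mt2 above both without PAM+Zymosan replicate 1. Deviations of same-numbered libraries from their group means correlated with r between -0.0175 and 0.0266 (mean 0.0043 over 18 pairs of libraries, beside -0.0021 over 36 pairs with different numbers). Such deviations hold mostly counting noise (chi-square per degree of freedom 1.10 to 1.47 within groups). The check therefore cannot tell whether replicate numbers mark a shared culture or batch. A replicate block gave 172 genes over PAM, 185 over Zymosan, 464 between the ligands, 211 for the interaction, 10 above both and 1 below, and moved no count by over 1.5 times. The added ligands with the 4 groups alone could not be run, since that fit holds no triplets.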
